A study of Bos taurus with 6 samples.

Results

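The genes described here encode monocarboxylate transporters of the SLC16 family, which carry lactate, pyruvate and related acids across cell membranes, and BSG (basigin), the membrane protein that escorts several of them to the cell surface. They were chosen by name: 9 genes were listed (SLC16A1, SLC16A3, SLC16A5, SLC16A6, SLC16A7, SLC16A9, SLC16A10, SLC16A13 and BSG), and 8 of them have a probe under a single gene symbol on the array, of 18010 genes and 24415 probes in all. Each of the 8 has 1 probe, and SLC16A9, whose product carries carnitine, was not analysed here because the platform table used for naming lists neither its symbol nor its gene ID. The genes were measured in primary bovine granulosa cells, the somatic cells that surround the oocyte and produce estradiol, taken from abattoir ovaries, from follicles below 6 mm in diameter. Frozen cells were thawed and grown, in both groups, in medium that held insulin, androstenedione, FSH (20 ng/mL) and R3 IGF1 (50 ng/mL). On day 2 of culture they were given either the vehicle DMSO or LY294002 at 50 μM, which blocks the lipid kinase PI3K and with it the activation of AKT. The inhibitor was added in medium without FSH and IGF1. After 2 h most of this medium, but not all, was exchanged for medium that again held FSH and IGF1, so some inhibitor may have remained until RNA was taken on day 4. There were 3 samples of each group, and every sample had its own Bovine Gene 1.0 ST array. Replicate cultures came from ovaries of several collection days, but no source ties an array to a day, so p-values measure the spread between these arrays, which may be partly technical. LY294002 is also known to act on other kinases, mTOR among them.

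Monocarboxylate transporters of the lactate-carrying kind move their substrate together with a proton, so the direction of transport follows the gradients of lactate and acid. Granulosa and cumulus cells of the follicle break down glucose and supply pyruvate to the oocyte, which itself uses glucose poorly. Export of lactate from glycolytic cells is the textbook role of SLC16A3 (MCT4), while SLC16A1 (MCT1) is widely expressed and works in either direction, and SLC16A7 (MCT2) binds its substrates with high affinity. Other members of the family carry quite different cargo, such as aromatic amino acids or thyroid hormone. The question put to the arrays was which of these genes differed between cells given the PI3K inhibitor and cells given DMSO.

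The deposited values are log2 signals, on which a difference of 1 is a doubling, and they were compared with limma across all probes. The words rose and fell are kept for changes of at least 1.4-fold (0.49 on the log2 scale) with an adjusted p under 0.05, the thresholds of the study's methods. With LY294002, 1 of the 8 genes rose (SLC16A6) and 2 fell (SLC16A3 and SLC16A5), compared with 2.58% of all probes that rose, 3.38% that fell and 5.96% in either direction. At any fold change, 4 of the 8 were lower with an adjusted p under 0.05 (SLC16A1 and SLC16A13 in addition) and 1 was higher, against 7.21% and 6.1% of all probes. The groups did not overlap for 7 of the 8 genes, all but BSG, and for 32.7% of all probes. A negative log2 fold change was found for 6 of the 8 and for 46.8% of all probes. The 8 genes had a median log2 fold change of -0.31, and all probes together one of 0.02.

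SLC16A3, the proton-linked exporter that cells with high glycolysis use to release lactate, had the largest change of the 8. Its log2 signal was 6.58, 7.07 and 7.17 in DMSO and 5.62, 5.32 and 5.15 in LY294002. All LY294002 arrays lay well below all DMSO arrays, and DMSO replicate 1 was the lowest of its group. The gene fell 2.98-fold, a log2 change of -1.58 (SE 0.19, 95% confidence interval -2.02 to -1.13, adjusted p = 0.00366), the fall of rank 47 among the 24415 probes. Without DMSO replicate 1 the fall was -1.76 on the log2 scale, and the call held in all 17 alternatives (adjusted p from 0.00017 to 0.0314). In these bulk samples, fewer cells that express a gene and less of its RNA per cell cannot be told apart.

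SLC16A1 and SLC16A7 encode the other members of the 8 that carry lactate and pyruvate with well described kinetics, and neither passed both thresholds. SLC16A1 had signals of 7.98, 7.98 and 7.91 in DMSO and 7.75, 7.71 and 7.69 in LY294002. Its replicates lay close together and the groups stood apart, yet the difference was small: a log2 change of -0.24 (SE 0.06, interval -0.38 to -0.10, adjusted p = 0.0449). The interval stops short of a 1.4-fold fall, and the adjusted p ran from 0.00542 to 0.134 over the alternatives. SLC16A7 had signals of 4.6, 4.40 and 4.42 in DMSO and 4.22, 3.92 and 4.13 in LY294002. All LY294002 values were below all DMSO values, with a log2 change of -0.38 (SE 0.10, interval -0.63 to -0.14, adjusted p = 0.0551). This interval includes a 1.4-fold fall. The adjusted p was 0.0326 without the dimmest 25% of probes and 0.0375 among probes with 1 symbol, within a range of 0.0326 to 0.136 over all alternatives, and the gene stayed under 1.4-fold in both. The changes of SLC16A3 and SLC16A1, taken as a difference within each array, differed by -1.34 on the log2 scale, more than the SD of this difference within DMSO (0.34) and LY294002 (0.21). The two-sided exact permutation test gave p = 0.1, the smallest value that 3 arrays against 3 allow. This was 1 of 4 such pairs, chosen after their values were seen, and the exact test gave p = 0.1 for each, before and after adjustment.

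**Figure D1:**
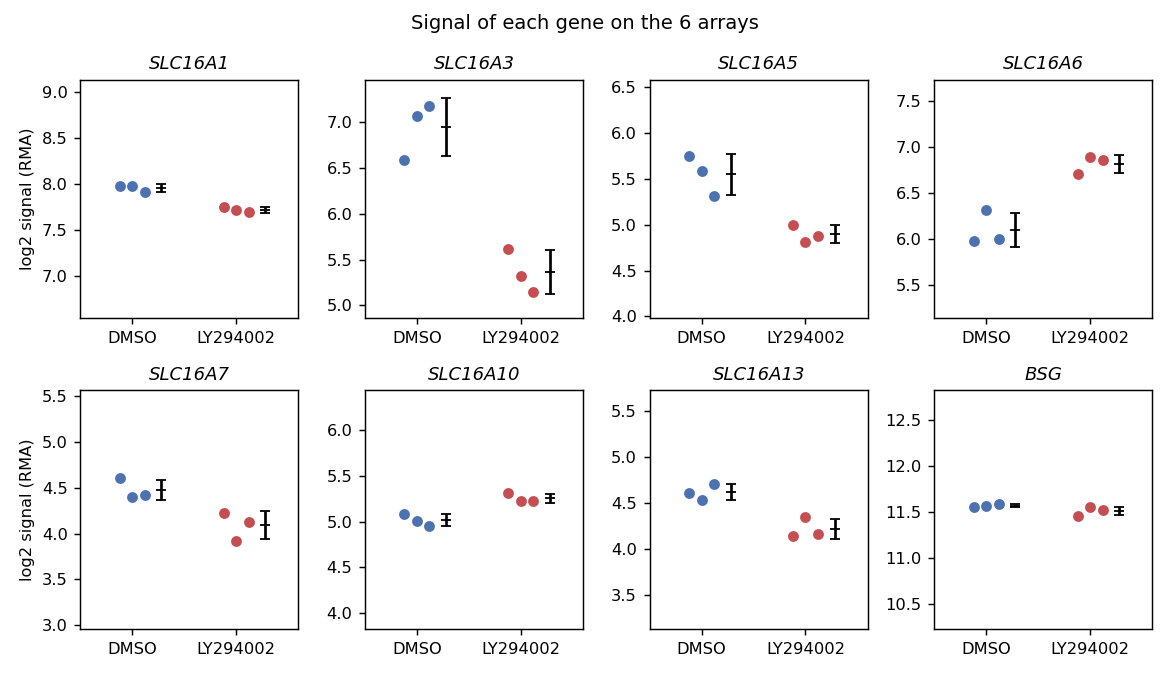
Log2 RMA signal of the 8 genes on each array, with DMSO in blue and LY294002 in red, points in replicate order 1 to 3, and the group mean ± SD (n = 3) in black; every panel spans the same range of log2 units around a different level. SLC16A3 fell from a mean of 6.94 to 5.36, SLC16A6 rose from 6.10 to 6.82, and BSG lay between 11.46 and 11.59 on all arrays.

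BSG, the immunoglobulin-like partner that SLC16A1 and SLC16A3 need to reach the plasma membrane, had nearly the same signal in both groups. Its signals were 11.55, 11.57 and 11.59 in DMSO and 11.46, 11.55 and 11.52 in LY294002. The groups overlapped, and the log2 fold change was -0.06 (SE 0.06, interval -0.20 to 0.08, adjusted p = 0.588). The interval lies inside a 1.4-fold change in either direction. It also lies clear of the interval of SLC16A3.

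The gene of the related chaperone embigin, EMB, which is known from rat to serve SLC16A7, was among the largest falls of the whole array. EMB had signals of 4.82, 5.02 and 4.97 in DMSO and 2.54, 3.07 and 2.57 in LY294002. The 2 groups were far apart, and the gene fell 4.63-fold, a log2 change of -2.21 (SE 0.15, adjusted p = 0.000831), rank 18 among the falls. No detection call was available for any probe. The LY294002 signals of EMB lay within or below the range read for oocyte markers (2.73 to 3.65). The fold of EMB and its difference from BSG may therefore be lower limits in size, and its rank may be understated. Its difference from the change of BSG was -2.15 on the log2 scale (SD of the within-array difference 0.09 in DMSO and 0.26 in LY294002, two-sided exact permutation p = 0.1). NPTN, the neuroplastin gene and the other close relative of BSG, named after its value was seen, had a log2 change of 0.10 (SE 0.06, adjusted p = 0.338). Of 13 measured relatives and partners of BSG, 1 fell (EMB, against 3.38% of all probes), 1 rose (against 2.58%) and 11 did not pass. The one that rose was CD44, a hyaluronan receptor found in complexes with basigin, from 6.96 ± 0.21 to 7.63 ± 0.02 (SD, n = 3), a log2 change of 0.67 (SE 0.11, adjusted p = 0.0117). The median log2 fold change of these 13 genes was 0.15.

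SLC16A6 (MCT7) was the only one of the 8 that rose. In zebrafish its counterpart exports ketone bodies from the liver, and in mammals it has been linked to taurine transport. Its signals were 5.98, 6.31 and 6.00 in DMSO and 6.71, 6.89 and 6.86 in LY294002. The lowest LY294002 array lay above the highest DMSO array, which was replicate 2. The rise was 1.65-fold, a log2 change of 0.72 (SE 0.11, interval 0.46 to 0.98, adjusted p = 0.00866), and it held in all 17 alternatives (adjusted p from 0.000424 to 0.0418). Within arrays, the changes of SLC16A6 and SLC16A3 lay 2.30 log2 units apart (SD 0.29 in DMSO and 0.33 in LY294002, two-sided exact permutation p = 0.1). The span of SLC16A6 overlaps that of ARSG, a sulfatase gene, in the RefSeq annotation. ARSG, looked up after the values were seen, had a change in the other direction (log2 fold change -0.39, adjusted p = 0.0151, under the fold threshold), and how the probes divide the shared span was not tested.

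SLC16A5 (MCT6), whose product has been shown to carry drugs such as bumetanide in frog oocytes and whose natural cargo is unsettled, fell 1.57-fold. Its signals were 5.75, 5.59 and 5.31 in DMSO and 5.0, 4.81 and 4.88 in LY294002. The groups did not overlap, though DMSO replicate 3 lay closer to LY294002 replicate 1 than to DMSO replicate 1. The log2 fold change was -0.65 (SE 0.12, interval -0.95 to -0.36, adjusted p = 0.0187). Without moderation of the variances it no longer passed (adjusted p = 0.068), nor did it without DMSO replicate 2, LY294002 replicate 2 or LY294002 replicate 3 (0.0645, 0.0683 and 0.066), with log2 fold changes of -0.63, -0.61 and -0.65. Over all alternatives the adjusted p of SLC16A5 ran from 0.00352 to 0.0683.

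SLC16A13, a lactate transporter of the plasma membrane in mouse liver, was lower without reaching 1.4-fold, and SLC16A10 (TAT1), which lets aromatic amino acids leave cells, did not pass the test. SLC16A13 had signals of 4.61, 4.53 and 4.71 in DMSO and 4.14, 4.34 and 4.16 in LY294002, with a log2 change of -0.40 (SE 0.08, interval -0.61 to -0.20, adjusted p = 0.0264, from 0.0142 to 0.0912 over the alternatives). The LY294002 signals of SLC16A13 and SLC16A7 lay within the range read for red cell markers (3.08 to 4.36). Without detection calls, the changes of these genes may be lower limits in size. SLC16A10 had signals of 5.08, 5.01 and 4.95 in DMSO and 5.31, 5.22 and 5.23 in LY294002. Here the LY294002 arrays were the higher ones without overlap, with a log2 change of 0.24 (SE 0.07, interval 0.08 to 0.40, adjusted p = 0.0616), and the interval lies below a 1.4-fold rise. SLC16A11, a pyruvate carrier gene that lies directly beside SLC16A13 in the annotation, was named after its value was seen. Its log2 change was -0.29 (adjusted p = 0.113).

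**Figure D2:**
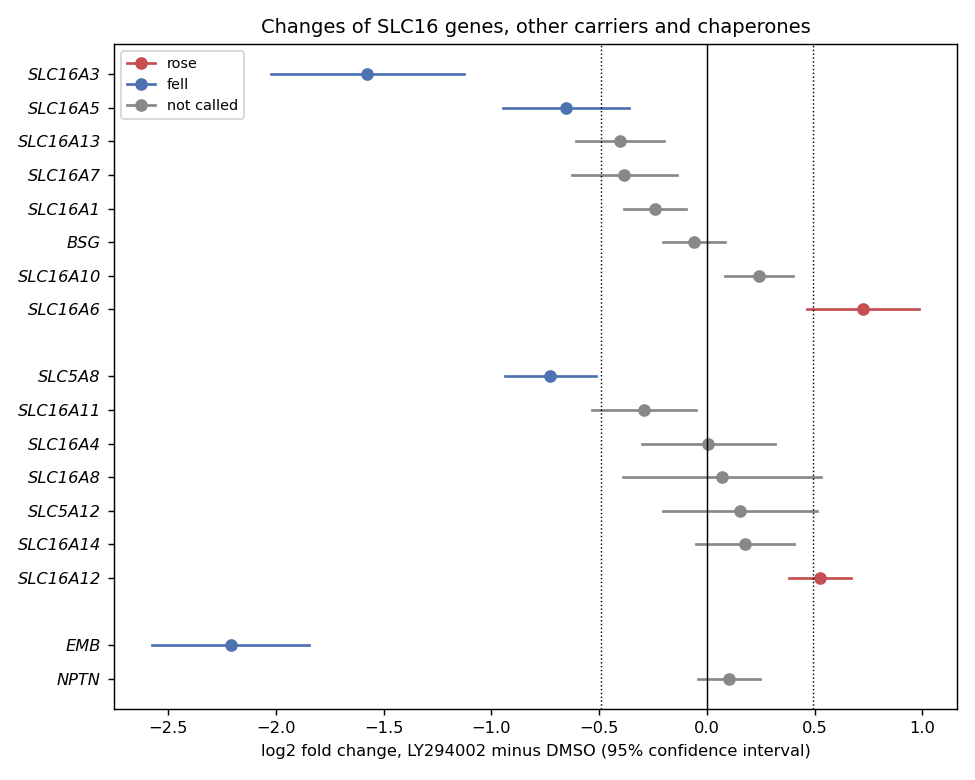
Log2 fold change (LY294002 minus DMSO) with its 95% confidence interval for the 8 genes (top), 7 other monocarboxylate carriers (middle) and the BSG relatives EMB and NPTN (bottom); red rose, blue fell, grey did not pass both thresholds, and dotted lines mark 1.4-fold. The changes run from -2.21 for EMB and -1.58 for SLC16A3 to 0.72 for SLC16A6.

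Among 7 further carriers of monocarboxylates that were measured, 1 rose, 1 fell and 5 did not pass. Of all probes, 2.58% rose and 3.38% fell. The median log2 fold change of the 7 carriers was 0.07. SLC16A12, the creatine transporter of the family, rose 1.44-fold, with signals of 9.89, 9.94 and 9.84 in DMSO and 10.40, 10.40 and 10.44 in LY294002. The replicates were tight and the groups far apart (log2 fold change 0.52, SE 0.06, adjusted p = 0.00329). SLC5A8, a carrier of lactate and pyruvate that is driven by sodium rather than by protons, fell 1.65-fold. Its signals were 5.64, 5.57 and 5.85 in DMSO and 5.0, 4.96 and 4.92 in LY294002, again without overlap (log2 fold change -0.73, SE 0.09, adjusted p = 0.00389). Within arrays these changes lay 1.25 log2 units apart (SD 0.19 in DMSO and 0.06 in LY294002, two-sided exact permutation p = 0.1).

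The enzymes that make and consume the cargo were described next, from a list of 27 genes that convert lactate and pyruvate, 25 of them measured. LDHB and MPC2 had no probe under a single gene symbol, so these partners of LDHA and MPC1 were not analysed. Of the 25 measured genes, 1 rose, 4 fell and 20 did not pass, against 2.58% of all probes that rose and 3.38% that fell. The log2 fold change was negative for 19 of the 25, with a median of -0.16, where 46.8% of all probes were negative. The genes that fell were those of PC, pyruvate carboxylase (log2 fold change -0.65, adjusted p = 0.00267), PDHB, part of the pyruvate dehydrogenase complex (-0.57, adjusted p = 0.00199), ME3, a mitochondrial malic enzyme (-0.69, adjusted p = 0.0142), and GPT, which converts alanine and pyruvate into each other (-0.56, adjusted p = 0.024). MPC1, a subunit of the carrier that takes pyruvate into mitochondria, rose from 8.58 ± 0.06 to 9.15 ± 0.05 (SD, n = 3), a log2 change of 0.57 (SE 0.06, adjusted p = 0.00319). The fall of ME3 was lost without DMSO replicate 3 (adjusted p = 0.052), and that of GPT without replicate 2 or 3 of either group (0.0729 to 0.0797). LDHA, the dehydrogenase subunit that forms lactate, named after its values were seen, had signals of 6.25, 5.65 and 6.30 in DMSO and 6.09, 5.78 and 5.86 in LY294002. These groups overlapped (log2 fold change -0.16, SE 0.19, adjusted p = 0.66), and the interval of -0.60 to 0.29 includes a 1.4-fold fall.

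Carbonic anhydrases and bicarbonate carriers handle the protons that travel with lactate. Of 15 measured genes, 3 fell, 0 rose with limma and 12 did not pass. For all probes, 3.38% fell and 2.58% rose. These 15 genes had a median log2 fold change of -0.06. Before adjustment, 5 had a p under 0.05 with a lower signal and 2 with a higher one. Of all 24415 probes, 3368 were lower and 3334 higher by this measure. Without moderation of the variances 2 fell and 0 rose. CA14, a carbonic anhydrase of the cell surface, fell from 4.96 ± 0.13 to 3.80 ± 0.16 (SD, n = 3), a log2 change of -1.16 (SE 0.11, adjusted p = 0.00165). The hypoxia-inducible CA9 also fell (-0.60, adjusted p = 0.00222). The LY294002 signals of CA14 and CA9 lay within the range read for red cell markers (3.08 to 4.36), so these falls may be lower limits in size. The cytosolic CA2 lay at the edge of the fold threshold (-0.49, adjusted p = 0.0229), and its call was lost with quantile normalization, with array weights, without moderation, with the replicate number as a block (adjusted p = 0.0688), under both stricter thresholds, and without replicate 1 or 3 of either group (adjusted p from 0.0633 to 0.0712 in these replicate settings).

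Ketone bodies, carnitine, creatine and taurine are cargo of members or relatives of the family. Of 5 measured genes of ketone body use and lactate sensing, 2 fell and 0 rose with limma. The same counts held without moderation and at an unadjusted p under 0.05, where 3368 of all 24415 probes were lower and 3334 higher. BDH1, which interconverts the ketone bodies, had a log2 change of -0.86 (SE 0.07, adjusted p = 0.00112), and OXCT1, the enzyme that activates them for oxidation, one of -0.53 (SE 0.07, adjusted p = 0.00478). Of 18 genes that handle thyroid hormone, carnitine, creatine or taurine, 1 rose and 3 fell, with a median of -0.08. Among all probes, 2.58% rose and 3.38% fell. SLC22A5, the sodium-dependent carnitine importer, fell 2.17-fold (log2 fold change -1.12, SE 0.12, adjusted p = 0.00268). GATM, the first enzyme of creatine synthesis, fell by the same amount (-1.12, SE 0.08, adjusted p = 0.000868), while SLC16A12, the creatine carrier, rose. SLC6A6, the taurine importer, fell (-0.64, SE 0.11, adjusted p = 0.0136, but 0.0535 without moderation and 0.059 with the replicate number as a block), while SLC16A6, linked to taurine transport, rose. The thyroid hormone receptor gene THRB rose (0.52, SE 0.10, adjusted p = 0.0223), a call lost without any 1 array other than LY294002 replicate 2 (adjusted p from 0.0549 to 0.074).

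**Figure D3:**
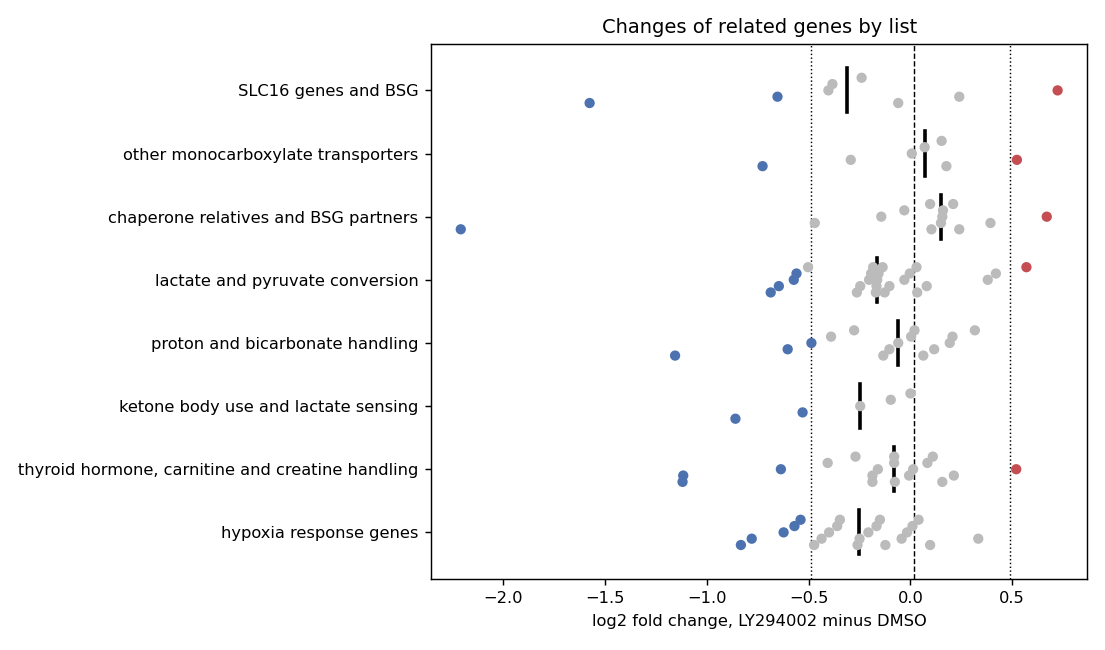
Log2 fold change (LY294002 minus DMSO) of each measured gene by list, with red for genes that rose, blue for genes that fell and grey for the rest; black bars are list medians, the dashed line is the median of all probes (0.02) and dotted lines mark 1.4-fold. Of the lists plotted, which leave out the cell type markers, the SLC16 genes and BSG have the lowest median (-0.31), and the hypoxia response genes have one of -0.26.

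SLC16A3 is a known target of the hypoxia-inducible factor HIF1, and other genes induced by low oxygen were therefore set beside it. Of 22 measured hypoxia response genes, 5 fell, 0 rose with limma and 17 did not pass. In all probes the shares were 3.38% that fell and 2.58% that rose. The 22 genes had a median log2 fold change of -0.26. Before adjustment, 13 had a p under 0.05 with a lower signal and 1 with a higher one. Of all 24415 probes, 3368 and 3334 did so. Without moderation 3 fell and 0 rose. The glucose transporter gene SLC2A3 (-0.83, adjusted p = 0.0171), the hexokinase gene HK2 (-0.78, adjusted p = 0.00341), the prolyl hydroxylase gene EGLN3 (-0.62, adjusted p = 0.0121), the collagen hydroxylase gene P4HA2 (-0.57, adjusted p = 0.00329) and the mitophagy gene BNIP3 (-0.54, adjusted p = 0.0262) fell. The log2 fold change was negative for 18 of the 22 and positive for 4. Among these 4, named after their values were seen, EGLN1 was higher without reaching 1.4-fold (0.33, adjusted p = 0.0255). SLC2A1, another of them, hardly differed (0.01, adjusted p = 0.957). Leaving out 1 array gave between 2 and 7 falls in this list, and the calls of SLC2A3 and BNIP3 were lost without replicate 2 or 3 of either group, and that of EGLN3 without LY294002 replicate 3. SLC16A3 had a larger fall than any of the 22, and whether HIF1 had a part in it was not tested. DMSO replicate 1, the lowest DMSO array for SLC16A3, was also the lowest DMSO array for 18 of the 22 genes (81.8%), compared with 34.7% of all probes. It was also the lowest for 9 of 12 granulosa markers, 3 of 3 theca markers, 3 of 5 oocyte markers and 3 of 5 genes of ketone body use and lactate sensing. Other lists had lower shares: 3 of 6 endothelial, 2 of 6 leukocyte, 1 of 5 fibroblast and 0 of 4 red cell markers. The same holds for 11 of 25 lactate and pyruvate genes, 3 of 7 further carriers and 5 of 13 BSG relatives and partners. It was the lowest for 5 of 18 thyroid hormone, carnitine and creatine genes and 3 of 15 proton and bicarbonate genes. The mean log2 signal of the hypoxia list was 8.62 on this array, 8.77 on the other DMSO arrays and between 8.39 and 8.48 on the LY294002 arrays. It was the lowest for 3 of the 8 transporter and chaperone genes, and without it the fall of SLC16A3 was larger, as given above.

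The labelled cell type was checked against marker genes. FSHR, the FSH receptor gene, CYP19A1, FOXL2 and the 9 other granulosa markers had signals between 4.57 and 11.74. With LY294002, 2 of the 12 rose and 4 fell, against 2.58% and 3.38% of all probes. CYP19A1, the aromatase gene, fell by 1.97 on the log2 scale (adjusted p = 0.000243), and FOXL2 (-0.75, adjusted p = 0.00394), AMHR2 (-0.72, adjusted p = 0.00319) and AMH (-0.61, adjusted p = 0.00269) fell as well. NR5A2, a nuclear receptor gene (1.04, adjusted p = 0.000371), and CYP11A1, which encodes the first enzyme of steroid synthesis (0.59, adjusted p = 0.00416), rose. The mean signal of this list was 8.45 to 8.55 on the DMSO arrays and 8.23 to 8.31 on the LY294002 arrays. Markers of oocytes lay between 2.73 and 3.65 and red cell markers, whose source cells express SLC16A1 and BSG strongly, between 3.08 and 4.36, with 0 of 5 and 0 of 4 called by limma and 0 and 1 at an unadjusted p under 0.05. Leukocyte markers had a mean of 4.48 to 4.56 in DMSO and 4.36 to 4.55 in LY294002, with 0 of 6 called and 1 at an unadjusted p under 0.05. At that unadjusted p, 3334 of all 24415 probes were higher and 3368 lower. Of 6 endothelial markers, CLDN5 fell (mean of the list 4.02 to 4.15 in DMSO and 3.82 to 4.06 in LY294002). Of 5 fibroblast markers, COL1A2 rose (list mean 10 to 10.08 in DMSO and 10.02 to 10.11 in LY294002). The fibroblast list read above the granulosa list on all arrays, though signals of different probes are only a rough guide to level. Whether stromal cells were present was not tested. Of 3 theca markers, INSL3 fell (mean of the list 4.76 to 5.03 and 4.24 to 4.53). INSL3 itself read well above its list mean, at 7.96, 8.33 and 8.38 in DMSO and 7.37, 7.21 and 6.94 in LY294002. The other theca markers had DMSO means of 3.02 and 3.52. The part of these shifts in the changes of the transporter genes was not tested. After the authors' normalization the array medians lay between 4.98 and 5.01.

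**Figure D4:**
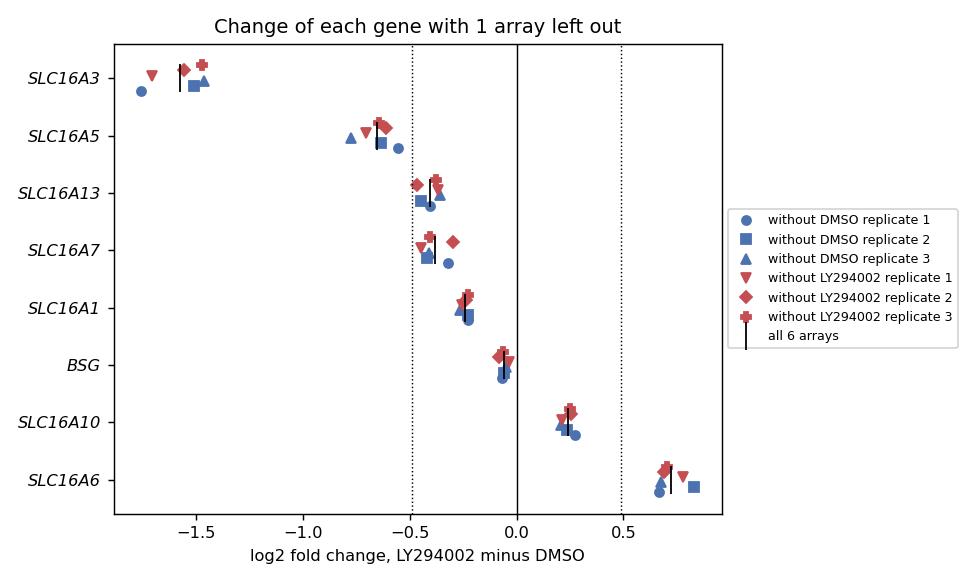
Log2 fold change (LY294002 minus DMSO) of the 8 genes from all 6 arrays (black bar) and with each array left out (blue symbols for a DMSO array, red for a LY294002 array); dotted lines mark 1.4-fold. SLC16A3 ranged from -1.76 to -1.46, SLC16A5 from -0.77 to -0.55 and SLC16A6 from 0.67 to 0.83, and no gene changed its direction.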

How the data were processed

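The authors hybridized RNA of each sample to a Bovine Gene 1.0 ST array and deposited log2 signals made with RMA, which corrects background, normalizes arrays to each other and gives 1 value per transcript cluster (a probe in this text). The version of RMA and the genome build are not given in the sources used here. The table holds 24415 probes without a missing value. Probes were named from the platform table (18457 with 1 symbol, 688 with several, which were not assigned, and 5270 with none), and all 8 member probes matched their RefSeq gene ID.

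The comparison of LY294002 and DMSO used limma 3.58.1 (lmFit, then eBayes) under R 4.3.3, without covariates and with p-values of all probes adjusted together (Benjamini-Hochberg). Signals of different probes were compared only as a rough guide to level beside marker genes and to choose a probe. For a gene with several probes the brightest was used. The number of arrays limits the precision. The members and gene lists were chosen with earlier results of these data known. The text names all members, the genes of each related list that passed (at least 2 in each), the cell type markers that passed and the 3 profiles nearest to each member that passed, and says where others were named after their values were seen. Alternatives covered variance, block, scaling, filters, weights, thresholds and single arrays. Promoter and protein comparisons were planned and not run.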

Additional observations from a re-analysis of the deposited data

How the results depend on the processing

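Of 136 alternative values for the 8 genes, 129 kept their direction and side of the thresholds, 5 (all of SLC16A5) lost the call and 2 (SLC16A1 and SLC16A13, at any fold change) passed. Of 391 values for 23 related genes, 57 lost the call and none turned direction. Settings that alter only the variance, block, probe filter or thresholds leave the log2 fold change as it is, so direction could not turn there. Stricter thresholds also cannot add a call. Leaving out 1 array gave 1 to 2 members that fell, 555 to 631 probes that rose and 680 to 761 that fell. It gave 1 to 2 falls among the BSG relatives, 2 to 4 in lactate and pyruvate conversion, 2 to 7 among hypoxia genes, and 0 to 1 rises in the thyroid hormone, carnitine and creatine list. With no fold threshold, 1489 probes were higher and 1760 lower, 4 members were lower, and counts were 2 higher and 2 lower (BSG relatives), 3 higher (lactate and pyruvate) and 1 higher and 9 lower (hypoxia). Without moderation, or at an adjusted p under 0.01, 1 member fell. Falls in lactate and pyruvate conversion numbered 2 without moderation, with the replicate block, at an adjusted p under 0.01 and at 1.5-fold. Hypoxia falls numbered 3 without moderation, with the block and at 1.5-fold, and 2 at an adjusted p under 0.01. GPT, ME3, CA2, THRB, SLC6A6, BNIP3 and SLC2A3 lost their calls both without moderation (adjusted p from 0.0535 to 0.0814) and with the block (from 0.0504 to 0.094). The rise of THRB was lost (0 rises) without moderation, with the block, at an adjusted p under 0.01 and at 1.5-fold. At 1.5-fold the rises of SLC16A12 and MPC1 were lost (0 each) and 1 ketone body gene fell, and at an adjusted p under 0.01 that of CD44 was lost (0). These lower counts under stricter thresholds follow from the thresholds, and the cause was not tested for the others. Same-numbered arrays of the groups did not deviate together over all probes (correlations of -0.044, -0.021 and -0.027). These values cannot show whether same-numbered samples came from the same collection day, which no source gives. With the replicate number as a block, 546 probes rose and 706 fell, and the calls of the 8 genes were kept.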

Other observations

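For each of the 3 genes that passed, the 3 most similar profiles among 18456 other probes with 1 symbol were taken by the root mean square difference over the 6 arrays, each profile centred on its DMSO mean. This is a description, since any probe with a like change comes close. For SLC16A3 they were PHYHIPL (0.14 log2 units, log2 fold change -1.47), the small GTPase gene RAB38 (0.17, -1.44) and LOC783879 (0.18, -1.42). For SLC16A5 they were the microRNA gene MIR34A (0.05, -0.65), the lysosomal protease gene CTSV (0.05, -0.66) and GFM2, a mitochondrial translation factor (0.05, -0.64). For SLC16A6 they were the synapsin gene SYN3 (0.05, 0.67), the semaphorin gene SEMA6C (0.05, 0.70) and STARD13 (0.06, 0.68).

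The nearest annotated protein-coding genes on either side of the 3 genes, looked up after the values were seen, did not pass both thresholds (ARSG, on one side of SLC16A6, is given above). Beside SLC16A3, the casein kinase gene CSNK1D had a log2 change of -0.10 (adjusted p = 0.36) and CCDC57 one of 0.38 (adjusted p = 0.0228, under the fold threshold). Beside SLC16A5, ARMC7 had one of 0.12 (adjusted p = 0.545) and LOC526787 one of 0.09 (adjusted p = 0.667). Beside SLC16A6, AMZ2 had one of 0.05 (adjusted p = 0.715).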
